A study of Homo sapiens with 151 samples.

Results

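Divergent promoters shared by a pair of protein-coding genes were examined in HepG2, a human liver cancer cell line. A pair was taken where the canonical transcription start sites (TSSs) of genes on opposite strands faced away from each other with 0 to 1000 bp between them. This rule found 984 pairs among the 20033 protein-coding genes of GENCODE 44, and their 1895 distinct genes were 9.46% of all coding genes. The window of a pair was the span between both TSSs plus 250 bp on either side. Some windows repeated the same locus, since 141 pairs shared a gene with another pair, and 972 windows were distinct. The distance between the TSSs was 10 to 999 bp with a median of 232.5 bp, and 626 pairs (63.6%) had at most 300 bp.

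The data were ChIP-seq peak lists of 127 DNA-associated proteins (DAPs), each pulled down with the same monoclonal antibody to a FLAG tag from HepG2 cells without any named treatment. The protocol in the labels is CETCh-seq, in which the tag is put on the cell's own copy of the gene. All but 6 of these lists were preferred data sets, and all counts of lists use the preferred ones only. Of the preferred lists 15 were for DAPs other than transcription factors (TFs). Each DAP had 1 list, so none has a replicate list here. The preferred lists held 195 to 61748 peaks with a median of 8680, the depth of sequencing is unknown, and 24 further samples were input libraries. A pair was counted as bound by a DAP where a peak of its list overlapped the window by at least 1 bp, and a window bound by at least 25% of the preferred lists (31 or more) was called highly bound.

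A promoter of this kind starts transcription in both directions from a single nucleosome-depleted region, usually within a CpG island and without a TATA box. Such pairs are known for genes of DNA repair, of the mitochondrion and of other functions that every cell uses, and for motifs of the ETS, NRF1, YY1 and NF-Y factors. ETS proteins such as ELK3 and ELK4 bind a GGAA core, NF-Y binds the CCAAT box, and both occur near the TSSs of many housekeeping genes.

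The spans between the TSSs of 9 pairs well known from textbooks are given here as examples, chosen for their short length. They are 9 of the textbook pairs with at most 250 bp between the TSSs, and each span lies upstream of both canonical transcripts. Each is read 5′ to 3′ on the plus strand of hg38, from the TSS of the minus-strand gene to that of the plus-strand gene. Capitals mark exact matches to the full letters of any of the 13 motifs that were searched on both strands, listed with the motif results.
COL4A1/COL4A2, chr13:110307157-110307284: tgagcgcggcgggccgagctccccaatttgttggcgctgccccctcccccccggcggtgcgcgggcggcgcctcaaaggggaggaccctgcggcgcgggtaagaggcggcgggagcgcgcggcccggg
SURF1/SURF2, chr9:133356487-133356550: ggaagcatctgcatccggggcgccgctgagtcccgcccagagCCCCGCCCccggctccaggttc
SARS2/MRPS12, chr19:38930763-38930944: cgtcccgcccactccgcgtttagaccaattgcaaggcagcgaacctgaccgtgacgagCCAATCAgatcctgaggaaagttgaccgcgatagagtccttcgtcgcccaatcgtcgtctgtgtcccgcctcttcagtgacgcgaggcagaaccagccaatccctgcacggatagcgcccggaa
MUTYH/TOE1, chr1:45339970-45340170: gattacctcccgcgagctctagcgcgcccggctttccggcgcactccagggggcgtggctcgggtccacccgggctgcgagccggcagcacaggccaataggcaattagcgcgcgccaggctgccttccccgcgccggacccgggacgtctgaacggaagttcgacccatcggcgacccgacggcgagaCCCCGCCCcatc
ZNF142/BCS1L, chr2:218659623-218659683: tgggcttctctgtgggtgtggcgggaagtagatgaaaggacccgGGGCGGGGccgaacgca
MRE11/ANKRD49, chr11:94493844-94493984: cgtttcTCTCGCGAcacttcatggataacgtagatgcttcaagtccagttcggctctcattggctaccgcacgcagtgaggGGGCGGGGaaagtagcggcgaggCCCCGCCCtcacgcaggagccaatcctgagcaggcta
XPC/LSM3, chr3:14178601-14178817: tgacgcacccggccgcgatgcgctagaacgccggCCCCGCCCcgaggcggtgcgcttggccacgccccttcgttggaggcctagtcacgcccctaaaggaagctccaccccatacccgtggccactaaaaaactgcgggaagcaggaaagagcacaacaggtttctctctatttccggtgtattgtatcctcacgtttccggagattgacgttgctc
ERCC8/NDUFAF2, chr5:60945070-60945205: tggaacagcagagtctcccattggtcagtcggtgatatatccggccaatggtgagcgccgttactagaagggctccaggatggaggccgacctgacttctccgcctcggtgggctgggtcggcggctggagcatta
XPO5/POLH, chr6:43576038-43576185: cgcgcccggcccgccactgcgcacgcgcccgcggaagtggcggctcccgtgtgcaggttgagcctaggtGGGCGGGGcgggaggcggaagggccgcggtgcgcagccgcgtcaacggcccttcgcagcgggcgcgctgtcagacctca
The SURF1/SURF2 span was 64 bp with 6 CpG dinucleotides and held a GC box. The MRE11/ANKRD49 span had 3 matches, a CGCG element and a pair of GC boxes, and the SARS2/MRPS12 span had a match to CCAATCA. The spans of COL4A1/COL4A2 and ERCC8/NDUFAF2 had no exact match to any of the 13 motifs. Shorter cores were not searched, and CCAAT alone does occur in small letters, in both of these spans among others. The COL4A1/COL4A2 span was 79.7% GC with 20 CpG dinucleotides in 128 bp, the XPO5/POLH span was 77.7% GC, and the window of the former had a peak in 0 lists and that of the latter in 79.

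Divergent pairs were bound by more DAPs than single promoters of the same CpG content. Each pair window was compared with a window of the same length at a single promoter, that of a coding gene with no other coding TSS within 2000 bp. The single promoter was chosen without replacement from 16906 for its CpG dinucleotides per 100 bp and its GC share. Pairs held 8.55 ± 2.57 CpG per 100 bp (SD over windows) and matched windows 8.55 ± 2.57, and GC was 64.4% and 64.5%. The mean number of lists per window was 45.7 at pairs and 30.6 at matched single promoters, a difference of 15.2 lists with a standard error over windows of 1.02. In a two-sided sign-flip permutation test over the preferred lists p was 1.0e-05, the smallest that 100000 flips can give. Lists share windows, so this p describes the lists and not new promoters.

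The shift was present through the whole distribution. Pairs had a median of 45 lists (quartiles 31 and 60), and matched windows had a median of 29 (quartiles 6 and 49). Highly bound windows were 742 of 984 pairs (75.4%, 95% Wilson interval 72.6 to 78.0) and 477 matched windows (48.5%, 45.4 to 51.6), against a background of 30.4% over all 16906 single promoters. Among matched windows, the pair alone was highly bound in 368 cases and the single promoter alone in 103 (exact McNemar test, two-sided, p = 5.5e-36). No peak of any preferred list was found at 39 pairs (3.96%, 2.91 to 5.37) and at 146 matched windows (14.8%, 12.8 to 17.2), while 36.9% of all single promoters had none (exact McNemar test, p = 1.5e-17). The intervals and tests cover counting error only, since windows scored by the same lists do not replicate each other. Where both windows of a match had a peak, 808 cases, pairs still had 48.1 lists and single promoters 36.1.

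**Figure D1:**
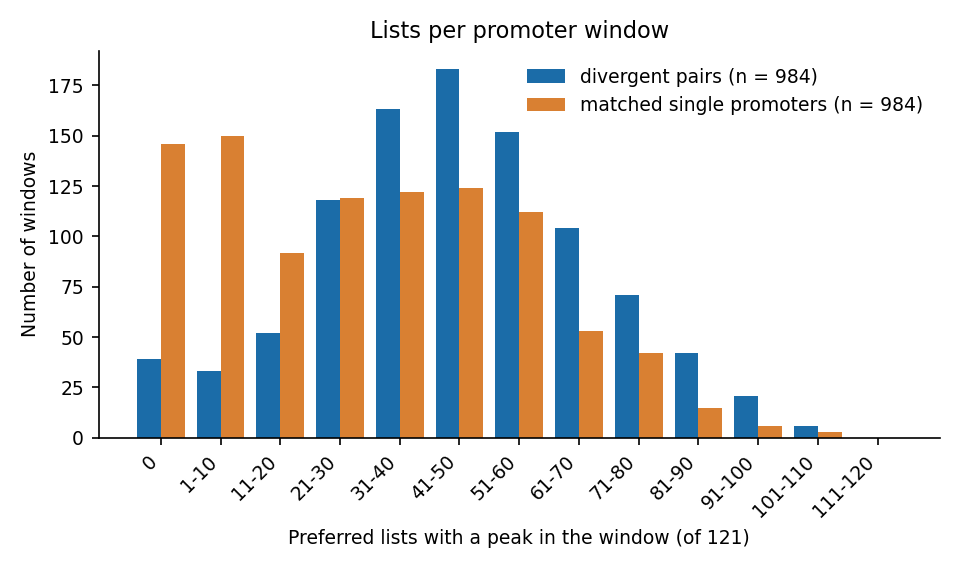
Number of windows (vertical axis) by the number of preferred lists with a peak in the window (horizontal axis), for 984 divergent pairs and 984 matched single promoters. Bars of pairs are highest at 41 to 50 lists, and 39 pairs against 146 matched windows have no peak.

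Pairs were bound by fewer lists than 2 single promoters counted jointly. When each pair was set against 2 matched single promoters, counting every list found at either of them, the mean was 48.6 lists, above the 45.7 of the pairs. The difference was −2.88 lists (standard error over windows 1.01; sign-flip permutation p = 1.0e-05), and 90 lists were found more often at either single promoter than at the pair, 30 less often. Highly bound were 74.8% of the windows joined in this way and 75.4% of pairs, and no peak was found at 3.25% and 3.96%. More than 50% of the lists were found at 35.8% of joined windows and at 24.8% of pairs. Each of the 2 single windows had the full length of the pair window, so the joined count covers more sequence, at 2 separate loci. The pair and the joined windows are therefore not on an equal footing. This comparison was chosen after the data were seen.

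The peak summits of a pair lay on both sides of its midpoint, while those of a single promoter leaned to the side of its gene. The midpoint of a single promoter was set upstream of its only TSS, so its place favours the side of the gene by construction. For 436 pairs with over 100 and up to 300 bp between the TSSs, the profile had a top on either side, with 5.09 summits per window and 50 bp each on the left and the right. The matched promoters had 1 top, of 4.64 on the side of their gene, and on the other side reached no more than 2.68, in the bin next to the midpoint. Summed to 1000 bp from the midpoint, pairs had 31.6 summits on the left and 34.6 on the right, and matched promoters 17.5 upstream of the midpoint and 30.9 on the side of the gene. In 190 pairs with up to 100 bp both tops merged into a plateau of up to 6.65 summits. Wide pairs, the 174 with over 500 bp, had separate tops of 3.42 and 3.63, and a matched promoter had 3.20 at its own TSS.

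**Figure D2:**
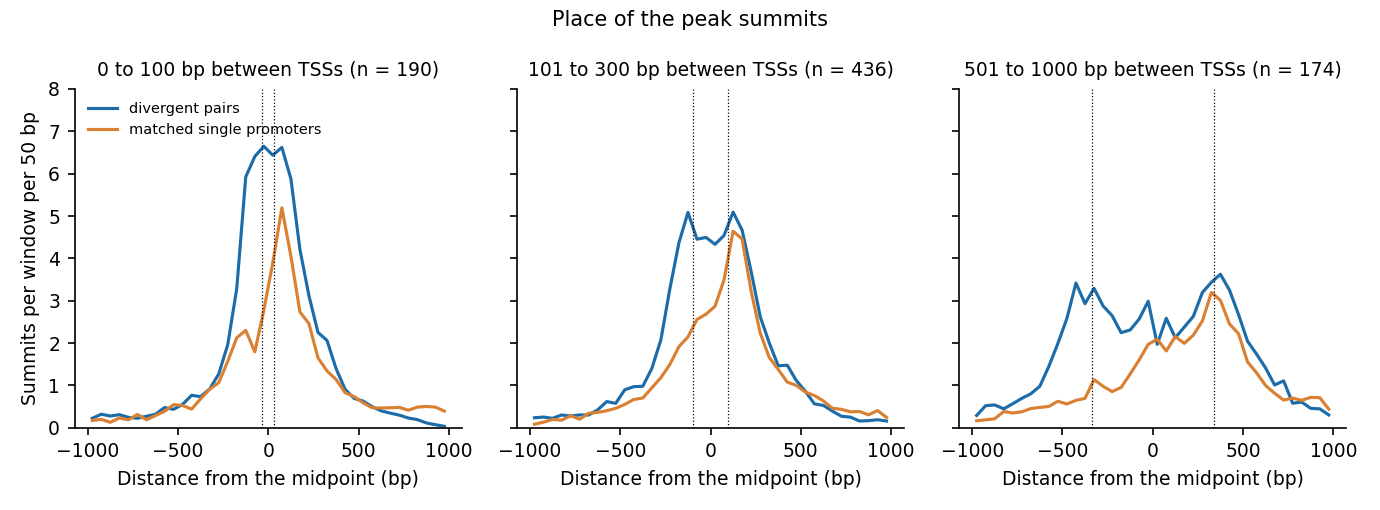
Summits of preferred peaks per window and 50 bp (vertical axis) by distance from the midpoint between the TSSs (horizontal axis), for 3 ranges of distance between the TSSs. Matched single promoters are turned so that their gene lies on the right; dotted lines mark the median place of the TSSs. The blue lines of pairs are near symmetric and the orange lines of single promoters lean to the right.

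The share of summits between the TSSs was set beside the share of the length, summed over pairs. In pairs with up to 300 bp, 27.4% of 32872 summits lay between the TSSs, which made up 23.99% of the window, and 26.4% of the matched promoters' summits lay in the like stretch. There were 9.10 summits per 100 bp between the TSSs and 7.63 in the flanks, summed over these pairs' windows. In pairs with over 300 and up to 500 bp it was 45.4% of summits in 43.97% of the length, against 50.8% at matched promoters. In wide pairs it was 55.8% of summits in 58.6% of the length, against 60.9% at matched promoters, with 5.03 summits per 100 bp between the TSSs against 5.64 in the flanks.

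Most DAPs shared in the difference. Of the preferred lists, 108 were found at a larger share of pairs than of matched windows at an adjusted p under 0.05 (exact McNemar test with Benjamini-Hochberg adjustment, 89.3% of lists tested), and 0 (0% of lists tested) at a smaller share. No list was lower at an unadjusted p under 0.05 either. The median difference was 13.3 percentage points and the median ratio of shares 1.56. Among TFs 90.6% of lists were higher, with a median difference of 13.2 percentage points, and among other DAPs 12 of 15 lists (80.0%), with 13.7. The mean difference was positive within each of the 24 input libraries that serve 110 lists with a single input, from 1.42 to 21.3 percentage points.

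**Figure D3:**
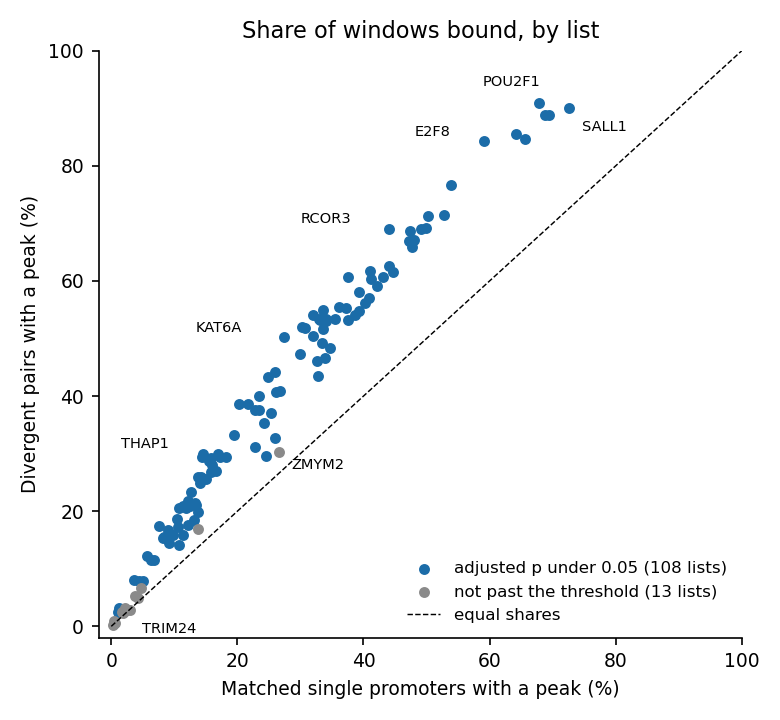
Percent of divergent pairs with a peak (vertical axis) against percent of matched single promoters with a peak (horizontal axis), 1 point per preferred list. All but 3 points lie above the dashed line of equal shares, and the 13 grey lists did not pass the test.

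The 12 largest differences belonged to lists longer than the median of 8680 peaks. The atypical E2F repressor E2F8 had a peak at 829 pairs (84.2%) and at 59.0% of matched windows, the largest difference at 25.2 percentage points (exact McNemar test, adjusted p = 3.6e-34). RCOR3, a CoREST corepressor, was at 69.0% of pairs and at 433 matched windows (exact McNemar test, adjusted p = 2.2e-27), and the zinc finger protein ZNF74 at 60.7% and 37.6%. The octamer-binding POU2F1 reached the most pairs, 895 in number (91.0%), against 67.9%. The acetyltransferase KAT6A followed with 50.2% against 27.3%, and SMAD7, an inhibitor of TGF-beta signalling, with 76.6% against 53.9%. ZNF160 had 54.1% against 32.0%, SIX5 52.0% against 30.3%, HES6 55.0% against 33.6% and ZMYM4 85.5% against 64.1%. E4F1, a zinc finger protein that also acts in the cell cycle, had 68.7% against 47.5%, and ELK3 51.8% against 30.7%. Each of these 12 passed the test. Over all preferred lists the difference had a Pearson r of 0.81 with the logarithm of the number of peaks, a description over lists that share windows.

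Lists named for their sites or complexes also passed the test, but with only the 1000 strongest peaks of each list the differences of SIX5 (1.73 percentage points) and MED12 (0) did not. THAP1, a zinc finger protein of cell-cycle genes, was at 30.0% of pairs and 14.5% of matched windows, a ratio of 2.06, and ELK4 had 20.6% and 10.7%, a ratio of 1.93. E2F7 had 16.7% and 8.94%, while MGA, an E-box protein, had 84.7% and 65.7%, a ratio of 1.29, and MED12 of the Mediator kinase module 60.8% and 43.1%. The 13 lists that did not pass had 195 to 19597 peaks. ZMYM2 with 19597 peaks was at 30.3% of pairs and 26.5% of matched windows (adjusted p = 0.074). TRIM24, a bromodomain cofactor with 4673 peaks, was at 2.85% and 2.95%. The other 5 lists with the smallest differences were SCMH1, CENPX, ZUFSP, ZBTB22 and CSDA, each at 0.203% to 2.74% of pairs.

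Among highly bound windows alone most lists were still at a larger share of pairs, by a median of 2.47 percentage points. The 742 highly bound pairs had 55.1 lists on average and the 477 highly bound matched windows 52.2. Within these windows E2F8 was at 92.9% of both, SIX5 at 61.6% of the pairs and 53.9% of the single promoters, KAT6A at 61.3% and 51.6%, and THAP1 at 37.5% and 26.8%. A positive difference was found for 90 lists. ZMYM2 was at 37.2% of these pairs and 48.4% of these single promoters. These windows were chosen for their number of lists, so their shares are a description.

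Motifs of housekeeping promoters were more frequent at pairs, ETS most of all. The 13 motifs were searched in the reference sequence of each window on both strands. CCGGAAG (ETS) occurred in 428 pairs (43.5%), 22.2% of matched windows and 16.9% of all single promoters in windows of 734 bp (exact McNemar test, p = 2.6e-22 adjusted over the motifs). The motifs more frequent at pairs than at matched windows numbered 6 in all, 46.2% of those tested. AAGATGGC (YY1) was in 13.8% against 7.72%, and 5.60% of all single promoters. CCAATCA (the CCAAT box of NF-Y) was in 18.2% against 13.01%, and 11.04% of all. ACTACAA (the start of the site under SIX5 and ZNF143 peaks) was in 10.6% against 5.79%, and 5.40% of all. CGCATGCG (NRF1) was in 7.83% against 3.35%, and 3.08% of all, and TGACGTCA (the cyclic AMP response element) in 6.402% against 3.56%, and 2.99% of all. At least 1 of the ETS, NRF1, SIX5, NF-Y and YY1 motifs was in 67.8% of pairs and 42.8% of matched windows. A pair window holds the sequence next to both of its TSSs, while a matched window holds that of a single TSS. Motifs were not counted jointly over 2 single promoters, so these shares are not on an equal footing.

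A pair of motifs (15.4%) was less frequent at pairs. TATAAA (the TATA box) was in 8.84% of pairs, 14.2% of matched windows and 20.7% of all single promoters (adjusted p = 4.2e-04). GGGCGGGG (the GC box of SP and KLF proteins) was in 50.9%, 58.6% and 42.6% (adjusted p = 6.0e-04). The other 5 did not pass. CACGTG (the E-box) was in 187 pairs, 185 matched windows (18.8%) and 14.5% of all, and TTTCCCGC (E2F) in 6.91%, 5.39% and 3.76%. TCTCGCGA (the CGCG element) was in 5.18%, 3.56% and 1.86%, ATGCAAAT (the octamer) in 2.44%, 2.24% and 2.96%, and TGACGTAA (E4F1) in 1.63%, 0.813% and 0.686%. The E4F1 motif and the cyclic AMP response element begin with the same letters, TGACGT, and a match to one is not a match to the other on the same strand.

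**Figure D4:**
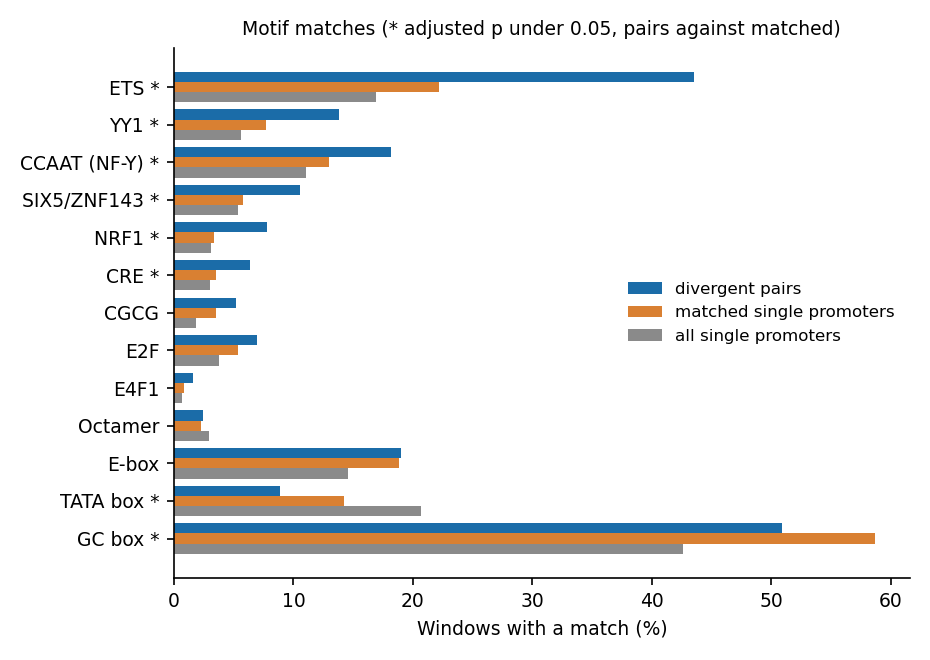
Percent of windows with a match on either strand (horizontal axis) for each motif (vertical axis), in divergent pairs, matched single promoters and all single promoters. Stars mark adjusted p under 0.05 for pairs against matched windows, with the ETS motif at 43.5% of pairs and 22.2% of matched windows.

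The share of pairs bound by a DAP was set against the motif of its family, as a description with no test. Over all preferred lists, pairs with an E-box had a mean of 53.16 lists and those without 44.01. For the ETS motif the means were 48.83 and 43.37. They were lower with the motif for the octamer (39.83 and 45.89) and the E4F1 motif (37.5 and 45.88). Shares with and without a motif were not adjusted for these means, so a higher share is not specific to the family. ELK3 had a peak at 63.8% of the 428 pairs with the ETS motif and at 42.6% of the 556 without it, and ELK4 at 28.5% and 14.6%. MLXIP, an E-box protein of glucose response, was at 35.8% of pairs with an E-box and 22.3% without, NPAS2 at 29.4% and 18.9%, and MGA at 95.2% and 82.2%. SIX5 was at 47.1% of pairs with the ACTACAA motif and 52.6% of those without. KLF15 was at 43.3% and 36.4% for the GC box, and POU2F1 at 91.7% and 90.9% for the octamer. ZNF148, another protein of GC-rich sites, was at 16.4% of pairs with the GC box and 18.6% without. The difference between pairs and matched windows was 14.2 percentage points with an ETS match and 17.3 without for ELK3, but 9.70 and 6.21 for ELK4. It was larger with the motif also for MGA (24.4 and 17.7), MLXIP (20.2 and 8.57), NPAS2 (14.8 and 8.31) and KLF15 (20.8 and 11.6). It was smaller with the motif for POU2F1 (9.85 and 23.4), E4F1 (6.25 and 21.3) and ZNF148 (9.26 and 10.5). The octamer was in 24 pairs and 22 matched windows, and the E4F1 motif in 16 pairs and 8 matched windows. Differences with these motifs therefore rest on few windows. For the E2F motif the difference was 11.2 and 7.46 for E2F7, and 25.6 and 25.1 for E2F8. For ACTACAA it was 22.6 and 21.98 for SIX5, and 16.4 and 15.6 for THAP1.

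Mean lists per pair window differed little between ranges of distance between the TSSs, although the window lengthens with that distance. Mean lists per window were 45.01 in pairs with up to 300 bp, 46.2 in pairs with over 300 and up to 500 bp and 47.9 in wide pairs, while matched windows of the same lengths had 31.6, 26.3 and 31.1. The difference from matched windows was 3.44 lists smaller in close than in wide pairs, with a standard error over windows of 2.84 lists. The sign-flip permutation test over lists gave p = 1.0e-05, but the sign turned to 1.56 lists (p = 0.0019) without the pairs that share a gene, so no direction is drawn from it. Pairs with at most 50 bp, 45 in number, had 46.4 lists.

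In wide pairs each end was considered by itself. Within 250 bp of each TSS, the minus-strand gene had 32.4 lists and the plus-strand gene 33.6. On average 18.5 lists were found at both of the ends and 47.5 at either end, a shared part of 39.0%. Matched single promoters had 26.5 lists at their TSS and 16.2 at the point as far upstream as the partner would be. At both of these points 11.75 lists were found and at either 30.95, a shared part of 37.97%. The shared part was therefore near that of the wide pairs and does not set them apart. The median peak length was 530 bp, so a single peak can count at both ends. Both ends were highly bound in 54 of the 174 wide pairs, 1 end in 62 and neither in 58, and in 36 pairs the ends differed by at least 31 lists. At the matched single promoters the TSS and the upstream point were both highly bound in 29, 1 of them in 51 and neither in 94. The pairs with the largest gaps, named after their values were seen, were C1orf232/ZNF593 with 0 lists at the former TSS and 72 at the latter, VRK3/ZNF473 with 18 and 84, and IGBP1C/RAD51C with 28 and 87, where RAD51C is a gene of homologous recombination.

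Pairs of coding genes were also bound by more lists than coding genes that face an lncRNA gene. At 1764 single coding genes the TSS of an lncRNA gene diverged within 0 to 1000 bp, with a median distance of 183 bp. These windows had a mean of 35.3 lists, 56.0% were highly bound and 13.5% had no peak. Matched single promoters without any lncRNA TSS within 2000 bp had 27.6 lists, so the difference was 7.74 lists. Coding pairs set against single promoters of the same kind differed by 16.6 lists, 8.85 more (sign-flip permutation test over lists, p = 1.0e-05, positive in 117 lists).

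Pairs poor in CpG were few and often unbound. A CpG observed over expected ratio under 0.4 was found in 17 pairs, 1.73% of them, and in 27.9% of all single promoters. Those 17 pairs had a median of 0 lists and 58.8% had none. Their mean of 12 lists was below the 13.7 of their matched windows, so the excess of pairs was not seen there. The 28 pairs from 0.4 to 0.6 had a median of 24.5. From 0.8 to 1.0, the most frequent range with 536 pairs, the mean was 49.9 lists, against 31.7 in all single promoters of that range.

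The number of lists at a pair also varied between chromosomes. Pairs on chromosome 20 had a mean of 72.3 lists (22 pairs) and on chromosome 2 one of 67.5 (72 pairs), followed by chromosome 16 with 54.7, chromosome 6 with 53.5, chromosome 17 with 53.3 and chromosome 14 with 51.9. The lowest autosome was chromosome 19 with 36.8. Single promoters had the same order at the top, with 36.9 lists on chromosome 20 and 31.7 on chromosome 2, and the means of pairs and of all single promoters had a Pearson r of 0.87 over the 22 autosomes, which share their lists. The 27 pairs of chromosome X had a mean of 8.04 lists, 5 had none and 1 was highly bound, RNF113A/NDUFA1 with 31, while single promoters there had 3.79. HepG2 is known to carry extra copies of some chromosomes, 2 and 20 among them, and the part of copy number in these counts was not tested.

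With single promoters matched on the same chromosome, the difference was 13.7 lists (standard error over windows 0.953, sign-flip permutation p = 1.0e-05). It was positive on each of the 22 autosomes, with a mean of 15.1 ± 6.35 lists (SD over autosomes) and a range of 5.64 on chromosome 16 to 28.6 on chromosome 21, which holds 7 pairs. Matching regardless of the chromosome gave 16.7 ± 10.3 lists over the autosomes, also positive on each of them.

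**Figure D5:**
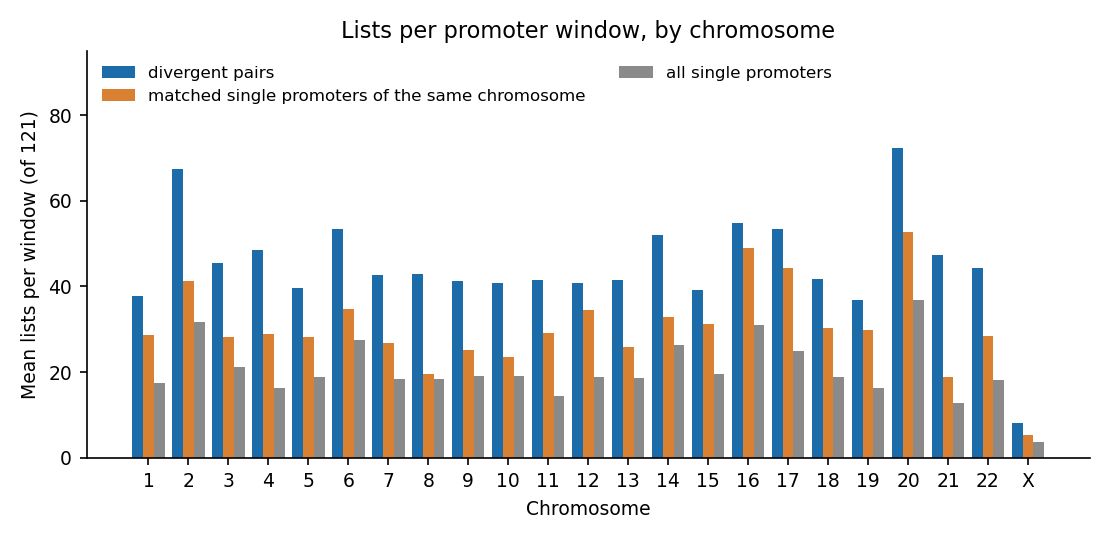
Mean number of preferred lists per window (vertical axis) on each chromosome (horizontal axis), for divergent pairs, single promoters matched on the same chromosome and all single promoters. Bars of pairs are highest on chromosomes 20 (72.3) and 2 (67.5) and lowest on X (8.04), and they are above both other bars on every chromosome shown.

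The 10 pairs bound by most lists had 96 to 110 lists. HSPD1/HSPE1, the genes of the mitochondrial chaperonin and its cochaperonin, had 110 (90.9% of the preferred lists), and so had its overlapping record HSPD1/HSPE1-MOB4. NEURL2/CTSA, the latter the lysosomal cathepsin A, had 109, and PMS2/AIMP2, a mismatch repair gene beside a scaffold gene of tRNA synthetases, had 108. SLC7A6OS/PRMT7 had 107, ACIN1/C14orf119 had 103 and TIGD1/EIF4E2 had 99. NFS1/ROMO1, with the cysteine desulfurase of iron-sulphur cluster assembly, and USP37/CNOT9 had 97 each, and ERI2/REXO5, which encode exonucleases, had 96. Their matched single promoters had 0 to 83 lists.

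No preferred peak lay at 39 pairs. The 10 with the shortest distances included the testis genes DCST2/DCST1, FAM229A/TSSK3 and PLCZ1/CAPZA3, the olfactory receptor genes OR11A1/OR2H1, the cancer-testis genes CSAG1/MAGEA12 and the ovarian FOXL2/FOXL2NB. The remaining 4 were DYDC1/DYDC2, TIGD7/ZNF75A, TRIM50/FKBP6 and ENSG00000285868/NIPAL4. Of the 39, 15 had a CpG ratio under 0.6 and 24 had 0.6 or more, among them DYDC1/DYDC2 with 0.849 and TIGD7/ZNF75A with 0.918. Their mean CpG ratio was 0.613, against 0.818 for bound pairs, and none had a peak in the 6 non-preferred lists. The pairs BOLA2/SLX1B, BOLA2B/SLX1A and SRGAP2B/FAM72D lie in segments with near-identical copies, where reads may not be placed, so their counts of 0 are uncertain.

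Among the textbook pairs 22 of 25 met the rule, with a median of 47 lists, a range of 0 to 110 and 14 highly bound. All pairs had a median of 45 lists and 75.4% were highly bound. The TSSs of COL4A6/COL4A5 were 1415 bp apart, and the canonical transcripts of TRMT2A/RANBP1 overlapped. After HSPD1/HSPE1, PRKDC/MCM4, a DNA repair kinase beside a replicative helicase subunit, had 94 lists, and XPO5/POLH, the latter the translesion polymerase eta, had 79. TK1/AFMID had 77, PREPL/CAMKMT 69, HADHA/HADHB, both subunits of the mitochondrial trifunctional protein, 66, and PPAT/PAICS of purine synthesis 63. Next came PDCD10/SERPINI1 with 59, TAP1/PSMB9, genes of antigen processing, with 58, and NPAT/ATM with 52. ZNF142/BCS1L had 49, MUTYH/TOE1 45, XPC/LSM3 39 and THAP10/LRRC49 32.

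Other textbook pairs were below 31 lists. SARS2/MRPS12 of mitochondrial translation had 30, ERCC8/NDUFAF2 28, MRE11/ANKRD49 26, IDH3G/SSR4 25, SURF1/SURF2 20 and RECQL4/LRRC14 18. COL4A1/COL4A2 and COL4A4/COL4A3, the genes of basement membrane collagen, had 0, although the window of the former had a CpG ratio of 0.922 and its matched promoter, EPC2, had 42 lists. Of the 22 pairs, E2F8 and POU2F1 were at 20 each, MGA at 19, E4F1 at 15, MED12 at 14 and SIX5 at 10. Over all pairs these lists were at 84.2%, 91.0%, 84.7%, 68.7%, 60.8% and 52.0%. ELK3 was at 9, THAP1 at 6, and ELK4 and E2F7 at 2 each. Over all pairs these were at 51.8%, 30.0%, 20.6% and 16.7%. HADHA/HADHB and HSPD1/HSPE1 were the pairs with ELK4, and neither window holds the ETS motif.

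Genes of several housekeeping groups were in pairs more often than the 9.46% of all coding genes, a description with no test. Of 105 DNA repair genes, 33 (31.4%) were in 34 pairs with a median of 45 lists, and 25 of these pairs were highly bound. Their extremes were PMS2/AIMP2 with 108 lists and FANCB/MOSPD2 of chromosome X with 6, the lists of E2F8, MGA, SALL1, ZFP91, ZMYM4 and ZNF529. Of 54 DNA replication genes, 13 were in pairs with a median of 53 lists, from 23 at SMYD4/RPA1 to 94 at PRKDC/MCM4. The matched windows of both groups had medians of 30.5 and 31, and single promoters of the same groups had 43 and 50. For comparison, all pairs had a median of 45 lists and 75.4% were highly bound.

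Mitochondrial and ribosomal genes were similar. Of 78 mitochondrial ribosomal protein genes, 26 were in 27 pairs with a median of 45 lists, from 21 at ENSG00000256646/MRPL32 to 84 at HIRA/MRPL40. Of 85 genes of the respiratory chain, 25 were in pairs with a median of 46, from 12 at NDUFB11/RBM10 of chromosome X to 76 at KBTBD4/NDUFS3. Of 75 cytosolic ribosomal protein genes, 13 were in 14 pairs that were all highly bound, with a median of 56, from 38 at RPL4/ZWILCH to 82 at CLHC1/RPS27A. The 6 pairs of aminoacyl-tRNA synthetase genes had a median of 61.5, with 78 at YARS1/S100PBP and 30 at SARS2/MRPS12. Single promoters of these 4 groups had medians of 52, 38, 60 and 47 lists, so in both ribosomal groups they were above the pairs.

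Histone, chaperone and zinc finger genes each included pairs without a peak. Of 69 replication-dependent histone genes, 26 were in 14 pairs, 13 of which had a histone gene on both sides. Their median was 39.5 lists, with 82 at H2AC17/H2BC17 and 0 at H2AC1/H2BC1, whose genes are known from testis, and 23 single histone promoters had 13. The matched windows of the histone pairs had a median of 40.5. Chaperone genes had 13 pairs with a median of 39, from 0 at CRYAB/HSPB2 to 110 at HSPD1/HSPE1. The matched windows of these pairs had a median of 38, and so had the 57 single chaperone promoters. Of 508 ZNF genes only 38 (7.48%) were in pairs, with a median of 43 lists, from 0 at TIGD7/ZNF75A to 86 at VRK3/ZNF473, and the 436 single ZNF promoters had 23. Of 40 hepatocyte genes 1 was in a pair, FOXA1/TTC6 with 60 lists, and of 26 genes of other tissues none was.

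The genes of 8 DAPs with a list lay in pairs, and 4 of these DAPs had a peak at their own promoter. ZNF646 was at ZNF668/ZNF646 (56 lists), ZNF593 at C1orf232/ZNF593 (72), ZNF571 at ZNF571/ZNF540 (29) and ZNF558 at ZNF558/MBD3L1 (13). AFF1, CENPX, GLYR1 and ZNF75D had no peak of their own list at their pairs, which had 40, 58, 29 and 10 lists. The 4 with an own peak had a peak at 57.0%, 53.3%, 35.4% and 16.97% of all pairs (ZNF558, ZNF571, ZNF593 and ZNF646), and those without at 58.0% (AFF1), 0.610% (CENPX), 71.2% (GLYR1) and 15.9% (ZNF75D), so nothing is read from the 4 of 8.

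Just inside the limit of 1000 bp were ATP6V1G2/NFKBIL1 (999 bp, 34 lists), HNRNPA2B1/CBX3 (998 bp, 62 lists) and PASK/PPP1R7 (994 bp, 59 lists). Just outside were ABHD14B/ABHD14A-ACY1 (1010 bp), ABHD14B/ABHD14A (1014 bp), both with 51 lists, and USH1G/OTOP2 (1017 bp, 30 lists).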

How the data were processed

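Peak lists of 127 DAPs of HepG2 were used, each from 1 FLAG ChIP-seq experiment. The authors ran the ENCODE processing pipeline on their own reads to make the lists, and the submitters' processing notes name hg38. Which aligner and peak caller ran is not given in the sources used here. The deposited score (540 to 1000) and the deposited signal of each peak served only to filter or rank peaks in alternatives, since signal is not scaled between lists, and the deposited q column, treated as a score, was not used. Depth is unknown. The input libraries entered only as labels, and the 6 non-preferred lists stayed out of every count of lists.

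TSSs came from the Ensembl canonical transcripts of GENCODE 44. Each pair window (250 bp beyond either TSS) was matched, richest in CpG first, to the nearest free single promoter by CpG per 100 bp and GC share, both scaled by their SD over pairs. Its window ran from 250 bp downstream of the TSS to the same length upstream as in the pair. Shares per list and the windows with 31 lists or with none were compared with exact McNemar tests, and lists per window with 100000 sign flips over lists. Adjusted p-values are from exact McNemar tests over all 121 lists or all 13 motifs (Benjamini-Hochberg, threshold 0.05). Python 3.11.15, numpy 2.4.6, pandas 2.3.3, scipy 1.17.1 and pysam were used. The calculations were tested on simulated data.

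Pairs named are textbook pairs, the 10 bound by most and the 10 by fewest lists, the extremes of each gene list, pairs with the gene of a DAP, and those next to the limit of 1000 bp. Lists named are those with the 12 largest and 6 smallest differences and 10 named for their sites or complexes. Members, motifs and gene lists were chosen with earlier results of these data known. Pairs on chromosome 8 had no sequence printed, and 1 textbook pair outside the rule is not reported here.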

Additional observations from a re-analysis of the deposited data

Results flagged for a closer look

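Several values were singled out by fixed rules. Of the 6 non-preferred lists, which entered no comparison above, 5 had a peak at a larger share of pairs than of matched single promoters (exact McNemar test, adjusted p under 0.05 over the 6). The difference was 23.5 percentage points for ZZZ3, a subunit of the ATAC acetyltransferase complex, which was at 53.8% of pairs and 30.3% of matched windows. It was 17.2 percentage points for TSC22D2 (46.3% and 29.2%), 13.9 for ZNF431 (50.2% and 36.3%), 13.5 for ZCCHC11 (31.6% and 18.1%) and 12.5 for the acetyltransferase EP300 (32.7% and 20.2%). GPBP1L1, with 73 peaks, was at 0 pairs and 1 matched window.

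The difference from matched single promoters was 8.85 lists larger for coding pairs than for coding genes facing an lncRNA gene, and it was −3.44 lists for close minus wide pairs. Both passed the sign-flip permutation test over lists (p = 1.0e-05), but the latter is near its standard error over windows of 2.84 lists.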

How the results depend on the processing

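Of 88 recomputed summary values, 86 were judged the same. Differences had to keep their direction and their side of the threshold, while counts of lists or motifs only had to stay near the original count. The fall from 108 to 78 lists higher at pairs, with the 1000 strongest peaks, was judged the same. The difference in mean lists ranged from 3.15 with the 1000 strongest peaks of each list to 16.9 with matching on CpG observed over expected, and it was 9.92 with peaks of score 830 or more. The share of highly bound windows differed by 4.07 to 31.3 percentage points and the share without a peak by −26.2 to −10.4. Lists higher at pairs numbered 78 to 111 and lists lower 0 in every setting, and 7 to 9 motifs differed. Close minus wide pairs did not hold: it was −0.516 lists (p = 0.066) with the 1000 strongest peaks and 1.56 lists (p = 0.0019) without pairs that share a gene; the cause was not tested. Other settings gave −8.80 to −1.52. Matching within the chromosome and leaving out chromosomes 2 and 20 were chosen after the data were seen, with differences of 13.7 and 12.5 lists. Of 315 recomputed differences of named lists 312 kept their call. With the 1000 strongest peaks MED12 (0 percentage points) and SIX5 (1.73) did not pass, and CSDA passed at 1.42 with the single window centred on the TSS. Of 132 recomputed counts at textbook pairs 91 stayed within the 95% binomial interval of the original count. Each DAP has 1 list, so replicate error is unknown, and canonical TSSs may not be those used in HepG2. Whether a gene was expressed is not analysed here, so expressed and silent single promoters were not separated.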
